A study of Mus musculus with 20 samples.

Results

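Gene expression was measured by messenger RNA sequencing in 1 line of mouse gastric organoids without p53 and 2 lines with it, none of them dysplastic. Gastric organoids are epithelial structures grown in culture from stomach tissue. KO line 650 carries the genotype p53 KO, with the gene removed in vivo, and gave 2 libraries. WT lines 300 and 1269 carry the WT genotype and gave 2 libraries each. All 3 lines have the strain label BL/6 and were grown in conditioned medium. These 6 libraries were chosen by their labels from 20 libraries of 8 lines. The remaining 5 lines are KO line 1270, also not dysplastic but made p53 KO ex vivo, WT dysplastic lines 565 and 752, and in vivo p53 KO dysplastic lines 794 and 801. KO line 650 is the single line of its kind, and the labels do not say which allele, Cre or other agent removed p53, which part of the gene was removed, or whether each line came from its own mouse. Libraries with the same line number share every label and were therefore summed, so the p-values measure the spread between lines, with 1 KO line set against 2 WT lines.

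The transcription factor p53, the product of Trp53, is held at a low level by the ubiquitin ligase Mdm2 and accumulates when DNA is damaged or when oncogenes drive proliferation. It then activates genes that stop the cell cycle, such as Cdkn1a, genes of apoptosis, such as Bax, and its own negative regulators, such as Mdm2. The protein ARF, encoded with the Cdk inhibitor p16 by the Cdkn2a locus, inhibits Mdm2.

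The 6 libraries held 9835745 to 13537743 counts. Within lines 650 and 300 the library numbered 2 stood apart from the library numbered 1. The log2 ratio of the libraries followed transcript length, with a Spearman correlation across genes of -0.494 in line 650 and -0.645 in line 300, and 10.4% and 5.76% of genes differed by more than 2-fold between them. Library 1269-2 showed no such relation to 1269-1, with a correlation of 0.0511. The medians of the p53 target, G2/M, S phase, Wnt and parietal lists are therefore also given without the shifted libraries 650-2 and 300-2, as is the number of DESeq2 calls. Most values of single genes are given with these libraries only. The lines also differed in sex. Xist, the RNA of the inactive X chromosome, averaged 0.650 CPM (counts scaled to a common library total) in KO line 650, against 0.574 CPM in WT line 300 and 449 CPM in WT line 1269, and the Y-linked genes of the list summed to 171.8 CPM in KO line 650, against 180.5 CPM in WT line 300 and 0.199 CPM in WT line 1269. KO line 650 and WT line 300 thus had male profiles and WT line 1269 a female one. Epithelial identity was present in all 6 libraries, where Epcam, an adhesion protein of epithelial cells, read 823 and 928 CPM in KO line 650 and 570 to 813 CPM in the WT lines. The immune list of 14 genes summed to 130.5 and 125.8 CPM in KO line 650, against 106.2 and 133.9 CPM in WT line 300 and 118 and 171.9 CPM in WT line 1269. Most of that came from Cd14, at 93.9 and 105 CPM in KO line 650 and 79.7 to 111 CPM in the WT libraries, and Cd68, at 34.8 and 19.5 CPM in KO line 650 and 21.8 to 73.3 CPM in the WT libraries. Ptprc, the common leukocyte antigen, read 0.614 and 0.205 CPM in KO line 650 and 0.493 to 1.57 CPM in the WT libraries, and Emr1, Ms4a1, Nkg7, Tyrobp and Lyz2 were at 0 in all 6 libraries.

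Trp53 was lower in KO line 650 than in the WT lines but was still read there. It measured 22.9 and 33.1 CPM in KO line 650, against 119.5 and 101 CPM in WT line 300 and 159.7 and 163 CPM in WT line 1269. These KO values rest on 298 and 323 counts, and the KO and WT libraries did not overlap. The level in KO line 650 was 19.7% of the WT mean, a log2 fold change of -2.34 ± 0.72 (SE). The Trp53 change had an adjusted p of 0.998 by edgeR's quasi-likelihood test, 0.0726 by DESeq2 and 0.14 by limma-voom, and it lay between -2.63 and -2.02 in 27 alternative analyses. In the ex vivo KO line 1270 Trp53 measured 5.84 and 4.42 CPM, 3.67% of the WT mean. The log2 difference of KO line 650 over KO line 1270 was 2.43 ± 0.80, with an edgeR adjusted p of 0.704. Whether the remaining reads come from a transcript that lacks exons or from cells that kept the gene was not tested, and in whole organoids fewer cells of a type and less RNA per cell cannot be told apart.

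Cdkn2a, whose products are p16 and ARF, was higher in KO line 650. It read 48.5 and 86.9 CPM in KO line 650, against 15.6 and 19.9 CPM in WT line 300 and 15.3 and 26.9 CPM in WT line 1269, and the log2 fold change was 1.73 ± 0.46. Both KO libraries lay above all 4 WT libraries, which was so for 6.33% of the 14057 genes tested. KO line 1270 read 58.4 and 60.4 CPM. The neighbouring Cdk inhibitor gene Cdkn2b read 92.7 and 111 CPM in KO line 650, against 49.4 and 71.1 CPM in WT line 300 and 30.5 and 58.1 CPM in WT line 1269, also without overlap. Rbl1, which encodes the pocket protein p107, was lower instead, at 23.5 and 43.7 CPM in KO line 650 and 51.1 to 83.2 CPM in the WT libraries. Of the 10 tested genes in the list of Cdkn2a and other cell cycle brakes, 5 were above and 5 below the WT lines, with a median log2 fold change of -0.02.

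**Figure D1:**
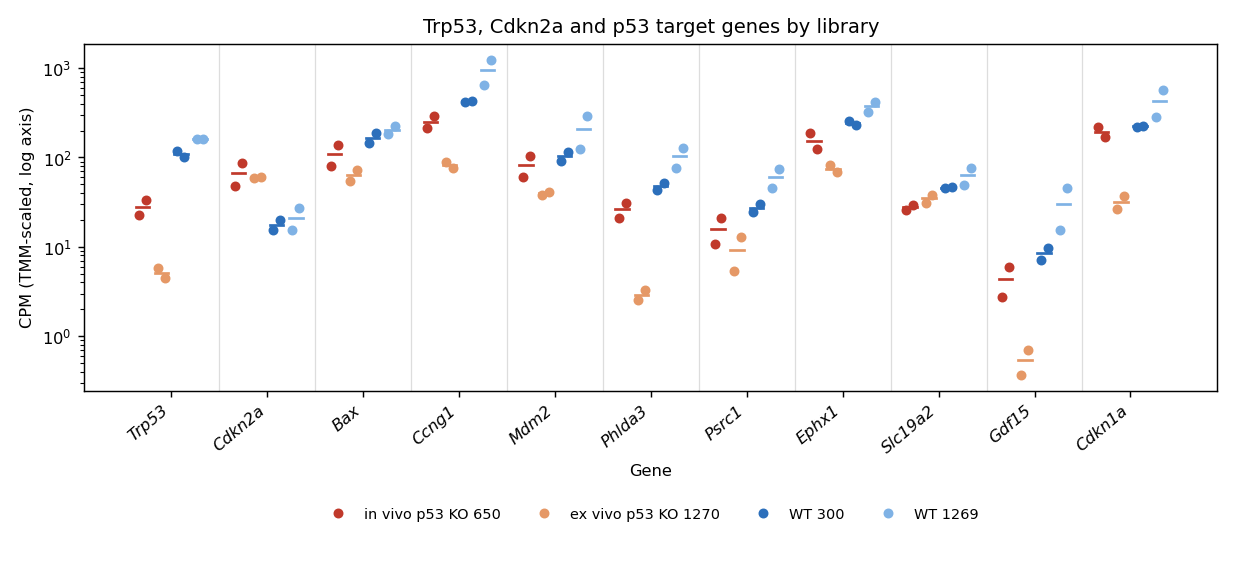
CPM (TMM-scaled, log axis) of Trp53, Cdkn2a and p53 target genes in each library of KO line 650, KO line 1270 and WT lines 300 and 1269. Points are libraries and bars the mean of a line's 2 libraries. Trp53 sits at 22.9 and 33.1 CPM in KO line 650, between KO line 1270 and the WT lines, while Cdkn2a is above the WT lines in both KO lines.

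Genes that p53 is known to activate were mostly below the WT level in KO line 650. Of 64 genes in the p53 target list, 63 passed the filter on low counts, and 52 of these were below and 11 above the WT lines. The median log2 fold change was -0.71, beside -0.02 over all genes tested. At an unadjusted p under 0.05, 9 members were lower and 0 higher, where 1.58% of all genes were lower and 1.64% higher. Both KO libraries lay below all 4 WT libraries for 24 members and above them for 0, where 6.7% of all genes were below and 6.33% above. None of the members reached an adjusted p of 0.05 by edgeR, as was the case for every gene, so the share called was 0%. The size of the difference depended on the WT line. Against line 1269 alone the median was -0.97, with 51 of 63 below, and against line 300 alone it was -0.25, with 47 of 63 below. The median was -0.35, with 45 of 63 below, when library 1269-2 was left out. Without 650-2 and 300-2 it was -0.72, with 50 of 63 below.

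The protein p53 binds DNA as a tetramer at paired half-sites, and the promoters of its targets were searched for the p53 half-site consensus in the 300 bases that run from 250 before to 50 after each gene's start (RefSeq, GRCm38.p6, both strands, the motif being its own reverse complement). Of the 64 list genes, 52 had a promoter in the table and 13 of them (25%) held at least 1 half-site, beside 9.55% of 27025 genes. Some genes had more than 1 start. Counted by promoter, 14 of 73 (19.2%) held a half-site in the list, beside 8.36% of 32851 in the table. Paired half-sites separated by at most 13 bases were found in 1 list gene, Cdkn1a (1.92%), and in 20 genes of the table (0.074%). The matches in 4 members described next are shown on the strand of the gene, with each half-site in capitals and 10 bases on either side. They lie at chr7:45467080-45467109 (minus strand) for Bax, chr11:40755452-40755481 (minus strand) for Ccng1, chr10:117710925-117710954 (minus strand) for Mdm2 and chr17:29090896-29090947 (plus strand) for Cdkn1a, where 12 bases separate the half-sites.
Bax: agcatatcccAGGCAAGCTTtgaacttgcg
Ccng1: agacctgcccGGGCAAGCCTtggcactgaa
Mdm2: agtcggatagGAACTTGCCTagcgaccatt
Cdkn1a: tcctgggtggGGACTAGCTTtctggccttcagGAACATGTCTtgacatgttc
A match describes the letters of the promoter and was not tied to binding in these organoids.

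Among the feedback regulators, 5 of 6 members were below the WT lines, with a median of -0.86. Ccng1, which encodes cyclin G1, read 212 and 288 CPM in KO line 650, against 420 and 433 CPM in WT line 300 and 655 and 1242 CPM in WT line 1269. No KO library of Ccng1 reached the lowest WT library, and the log2 fold change was -1.50 ± 0.53. Mdm2 read 60.1 and 103 CPM in KO line 650, against 91.1 and 116 CPM in WT line 300 and 124 and 292 CPM in WT line 1269. Its groups overlapped, because KO library 650-2 lay above WT library 300-1, and WT library 1269-2 stood far above the other WT libraries. The stress-induced regulator Trp53inp1 showed the same split of the WT lines, with 47.3 and 43.7 CPM in KO line 650, against 59.2 and 47.1 CPM in WT line 300 and 142 and 313 CPM in WT line 1269, and a log2 fold change of -1.62 ± 0.79. Its relative Trp53inp2 was the member of this role above the WT lines, at 197 and 138 CPM in KO line 650 and 64.2 to 146 CPM in the WT libraries.

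For the genes of cell cycle arrest, 8 of 9 tested members were below the WT lines, with a median of -0.73. Cdkn1a, which encodes the Cdk inhibitor p21 and whose promoter holds the paired sites printed above, read 220.3 and 169 CPM in KO line 650, against 217 and 228 CPM in WT line 300 and 286 and 576 CPM in WT line 1269. KO library 650-1 of Cdkn1a lay within the range of line 300, so most of the difference was to line 1269, and the log2 fold change of -0.73 ± 0.56 had an unadjusted p of 0.243 by edgeR. Psrc1, a microtubule-associated protein, was lower without overlap, at 10.7 and 21.2 CPM in KO line 650, against 24.3 and 29.8 CPM in WT line 300 and 46.1 and 74.2 CPM in WT line 1269. Zfp365 read 0.537 and 0.820 CPM in KO line 650, against 1.91 and 2.86 CPM in WT line 300 and 8.99 and 43.8 CPM in WT line 1269, so that the WT libraries themselves ranged more widely than the KO line stood from line 300. The member above the WT lines was Sfn, the 14-3-3 sigma gene, with 116 and 156 CPM in KO line 650 and 83.3 to 122 CPM in the WT libraries.

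All 14 genes of apoptosis in the list were below the WT lines, with a median of -0.80. For 8 of them both KO libraries lay below all 4 WT libraries, where 6.7% of all genes did. Bax, which permeabilises the mitochondrial outer membrane, read 80.7 and 136 CPM in KO line 650, against 144 and 190 CPM in WT line 300 and 184 and 223 CPM in WT line 1269. With a log2 fold change of -0.84 ± 0.22 it had the smallest unadjusted p of the p53 target list. Pidd1, a scaffold that activates caspase-2, read 3.99 and 9.33 CPM in KO line 650, against 11.8 and 12.6 CPM in WT line 300 and 28.7 and 47.5 CPM in WT line 1269, again without overlap. The RNA-binding protein gene Zmat3 read 64.8 and 43.5 CPM in KO line 650, against 107 and 57.9 CPM in WT line 300 and 137 and 194 CPM in WT line 1269, where the shifted libraries 650-2 and 300-2 were the lowest of their lines. Eda2r, a receptor of the tumour necrosis factor family, measured 14.04 and 21.2 CPM in KO line 650, against 32.5 and 33.9 CPM in WT line 300 and 77.4 and 134 CPM in WT line 1269. KO line 1270 held 0.222 and 0.118 CPM of Eda2r, so that on a ratio scale KO line 650 lay nearer to WT line 300 than to KO line 1270. The gene 9030617O03Rik read 34.6 and 38.3 CPM in KO line 650, against 70.4 and 82.1 CPM in WT line 300 and 92.1 and 141 CPM in WT line 1269, with a log2 fold change of -1.43 ± 0.38, and KO line 1270 was far lower at 4.73 and 4.07 CPM.

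The 29 members of metabolism and stress had 23 below the WT lines and a median of -0.42, and 10 of them lay below all WT libraries and 0 above, against 6.7% and 6.33% of all genes. Phlda3, which restrains the kinase Akt, read 21.2 and 31.1 CPM in KO line 650, against 43.03 and 52.05 CPM in WT line 300 and 77.2 and 128 CPM in WT line 1269. Ephx1, a microsomal epoxide hydrolase, read 186 and 123 CPM in KO line 650, against 256 and 232 CPM in WT line 300 and 324 and 422 CPM in WT line 1269, and the thiamine transporter gene Slc19a2 read 25.6 and 29.5 CPM in KO line 650, against 45.03 and 46.1 CPM in WT line 300 and 49.2 and 76.7 CPM in WT line 1269. In all 3 genes both KO libraries lay below every WT library, with log2 fold changes of -1.57 ± 0.52 for Phlda3, -0.97 ± 0.36 for Ephx1 and -1.01 ± 0.29 for Slc19a2. Gdf15, a secreted stress cytokine, was a low gene with a wide WT range, at 2.76 and 5.94 CPM in KO line 650, against 7.11 and 9.76 CPM in WT line 300 and 15.4 and 45.3 CPM in WT line 1269. The 5 DNA repair members were split, with 2 below and 3 above the WT lines and a median of 0.11. Ercc5, a nuclease of nucleotide excision repair, was among the lower ones, at 24.2 and 20.4 CPM in KO line 650 and 28.5 to 72.8 CPM in the WT libraries.

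Across all genes, the main test separated no gene of KO line 650 from the WT lines. edgeR's quasi-likelihood test, with Benjamini-Hochberg adjustment at 0.05, called 0 of 14057 genes, and 453 had an unadjusted p under 0.05, of which 231 were higher and 222 lower. limma-voom called 0 of 13141 genes, with 772 at an unadjusted p under 0.05. DESeq2 on the same line sums called 20 of 15408 genes, 19 higher (0.123%) and 1 lower (0.00649%), with 614 at an unadjusted p under 0.05. That balance of directions depended on the libraries. It was 18 higher and 63 lower without 650-2, and 89 higher and 100 lower without 650-1. Without 1 WT library it was 10 higher and 0 lower (300-1), 40 and 15 (300-2), 9 and 0 (1269-1) or 22 and 2 (1269-2). With 1 KO line the spread of that line was taken from the other groups, and the number of DESeq2 calls ran from 9 to 342 when libraries or lines were left out in turn. The 20 genes below were named because DESeq2 called them, after their values were seen, and their fold changes are from edgeR.

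**Figure D2:**
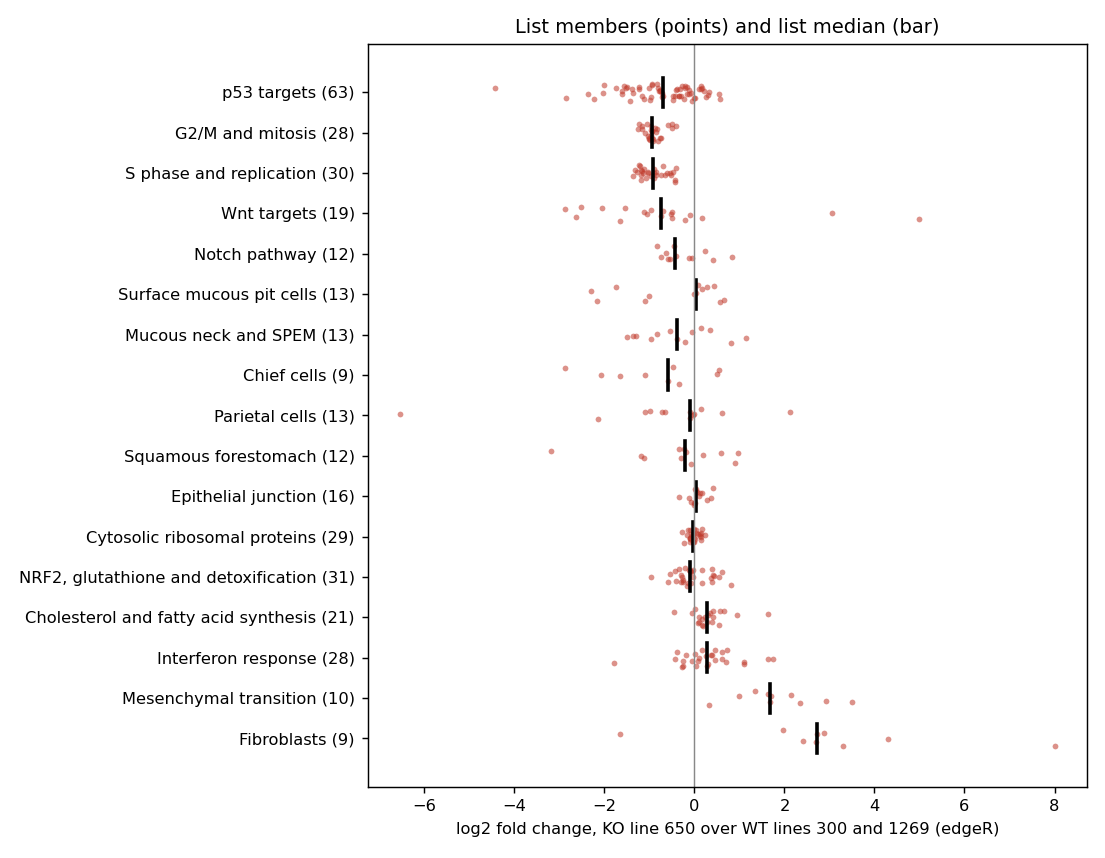
log2 fold change of KO line 650 over WT lines 300 and 1269 (edgeR) for each tested member (points) of 17 gene lists, with the list's median as a bar and the number of tested members in brackets. The bars of the cell cycle, p53 target and Wnt lists lie below 0, those of the mesenchymal transition and fibroblast lists above, and that of the ribosomal protein list at -0.03. Points of genes with no count in 1 of the groups, such as Thy1, Dkk2, Lef1, Esrrg and Twist1, depend on the prior count of the fit.

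The genes that rose by DESeq2 included several of matrix and secreted proteins. Fbln2, a fibulin of basement membranes and elastic fibres, measured 111 and 210.4 CPM in KO line 650, against 41.9 and 56.4 CPM in WT line 300 and 20.98 and 76.1 CPM in WT line 1269. Its log2 fold change was 1.65 ± 0.17, with an adjusted p of 5.06e-10 by DESeq2 and 0.970 by edgeR. Fn1, fibronectin, measured 1072 and 1746 CPM in KO line 650, against 361 and 497 CPM in WT line 300 and 197 and 621 CPM in WT line 1269. Both KO libraries of Fbln2 and Fn1 lay above all WT libraries, and Fn1 had a DESeq2 adjusted p of 0.0433. Col7a1, the collagen of anchoring fibrils, measured 4.60 and 13.1 CPM in KO line 650, against 0.456 and 1.48 CPM in WT line 300 and 0.307 and 0.331 CPM in WT line 1269, and Fstl1, a secreted follistatin-like protein, measured 2.92 and 7.58 CPM in KO line 650 and 0 to 0.307 CPM in the WT libraries. Fstl1 and Col7a1 were close to the detection floor in WT organoids, so no fold change is given for Fstl1, and the log2 fold change of 3.69 ± 0.59 for Col7a1 starts from few counts. Serpinh1, the collagen chaperone of the endoplasmic reticulum, read 2.92 and 6.76 CPM in KO line 650 and 0.0912 to 0.827 CPM in the WT libraries. Olfml2b, an olfactomedin-like matrix protein, read 9.20 and 19.4 CPM in KO line 650 and 2.23 to 4.47 CPM in the WT libraries.

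The DESeq2 calls also included genes of the cytoskeleton and of cell attachment. Aif1l, an actin-binding protein, measured 14.4 and 45.9 CPM in KO line 650, against 4.65 and 9.17 CPM in WT line 300 and 1.61 and 7.44 CPM in WT line 1269. Fermt2, which encodes kindlin-2 and activates integrins, read 6.90 and 18.1 CPM in KO line 650 and 0.154 to 2.66 CPM in the WT libraries. Kank1, an adaptor between adhesions and the cytoskeleton, read 4.37 and 10.3 CPM in KO line 650 and 0.307 to 1.57 CPM in the WT libraries. The KO libraries lay above the WT libraries for each of these 3 genes. Nes, the intermediate filament nestin of progenitor cells, read 10.3 and 19.98 CPM in KO line 650 and 2.46 to 4.63 CPM in the WT libraries.

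Signalling genes were also called. Axl, a receptor tyrosine kinase, read 15.03 and 39.04 CPM in KO line 650, against 2.55 and 3.35 CPM in WT line 300 and 1.84 and 12.4 CPM in WT line 1269, and its DESeq2 adjusted p was 0.048. Inhba, the subunit of activin A, read 10.4 and 29.4 CPM in KO line 650 and 0.922 to 8.35 CPM in the WT libraries. In both genes KO library 650-2 was the highest of the 6 libraries and 650-1 was nearer to the WT range. Ppbp, a chemokine of platelets, read 7.59 and 15.4 CPM in KO line 650 and 0.231 to 3.89 CPM in the WT libraries. The transcription factor Sox11 read 4.83 and 7.79 CPM in KO line 650 and was almost silent in WT organoids, with 0.0769 to 0.197 CPM. Slc7a3, a transporter of cationic amino acids, read 4.76 and 8.61 CPM in KO line 650 and 0.0769 to 0.827 CPM in the WT libraries. Neither KO library of Ppbp, Sox11 or Slc7a3 lay within the WT range. Other higher calls were St6gal1, a sialyltransferase, at 18.1 and 32.3 CPM in KO line 650 and 5.72 to 11.5 CPM in the WT libraries, and Ctsw, a cathepsin, at 2.61 and 7.69 CPM in KO line 650 and 0.0769 to 0.296 CPM in the WT libraries. Cldn2, the pore-forming claudin of tight junctions, was the gene that fell by DESeq2, with 35.4 and 59.4 CPM in KO line 650, against 157 and 102 CPM in WT line 300 and 211 and 197 CPM in WT line 1269. Its log2 fold change was -1.89 ± 0.50 and its DESeq2 adjusted p 0.0493, and no KO library of Cldn2 reached the WT range.

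**Figure D3:**
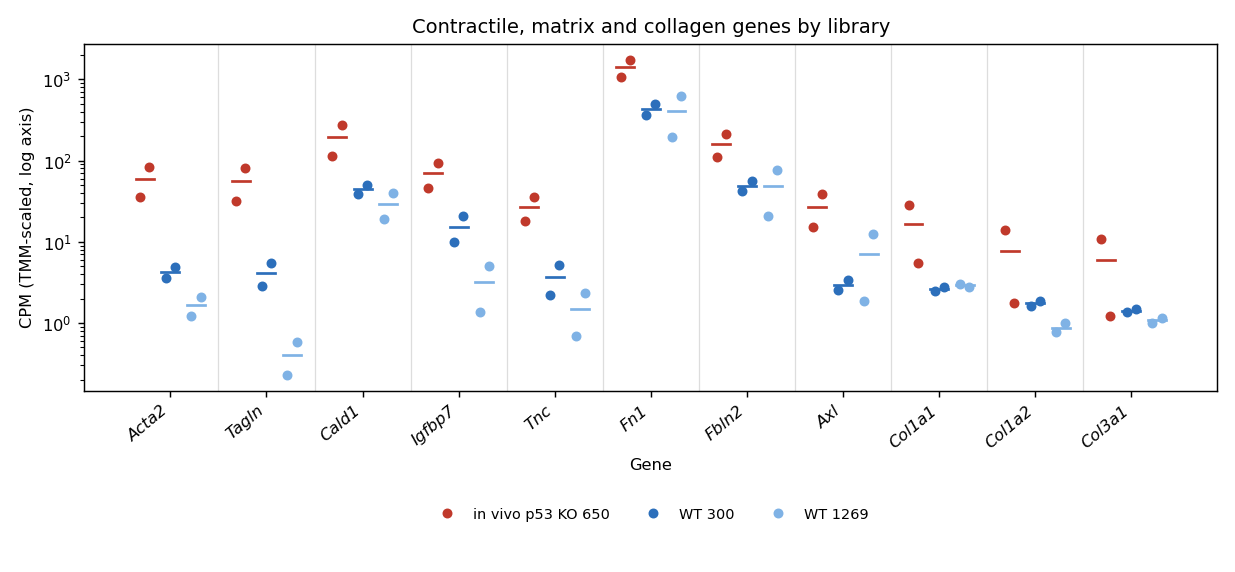
CPM (TMM-scaled, log axis) of contractile, matrix and collagen genes in each library of KO line 650 and WT lines 300 and 1269, with bars at the mean of a line's 2 libraries. Acta2, Tagln and Cald1 are highest in KO library 650-2, and Col1a1, Col1a2 and Col3a1 in 650-1.

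Contractile genes were far higher in KO line 650 than in either WT line, and the WT lines differed from each other too. Acta2, smooth muscle actin, read 35.6 and 83.3 CPM in KO line 650, against 3.56 and 4.83 CPM in WT line 300 and 1.23 and 2.07 CPM in WT line 1269. Tagln, the actin-bundling transgelin, read 31.8 and 81.98 CPM in KO line 650, against 2.83 and 5.52 CPM in WT line 300 and 0.231 and 0.579 CPM in WT line 1269, and Cnn1, calponin, read 4.76 and 10.97 CPM in KO line 650, against 0.638 and 1.28 CPM in WT line 300 and 0 and 0.0827 CPM in WT line 1269. Cald1, caldesmon, was abundant in WT organoids as well, at 115 and 272 CPM in KO line 650, against 38.6 and 50.2 CPM in WT line 300 and 19.1 and 39.5 CPM in WT line 1269. Each of these genes was higher in 650-2 than in 650-1 and higher in both than in any WT library, but the log2 fold change of 4.26 ± 2.01 for Acta2 had an error that left its unadjusted p at 0.0798. Myh11, the smooth muscle myosin, read 3.60 and 2.66 CPM in KO line 650 and 0.197 to 0.827 CPM in the WT libraries. Desmin (Des), a marker of mature muscle, read 0 and 0.205 CPM in KO line 650 and 0 to 2.89 CPM in the WT libraries. Igfbp7, a secreted binding protein, read 46.1 and 94.2 CPM in KO line 650, against 10.03 and 20.6 CPM in WT line 300 and 1.38 and 5.04 CPM in WT line 1269, and Tnc, the matrix protein tenascin C, read 18.1 and 35.8 CPM in KO line 650, against 2.19 and 5.22 CPM in WT line 300 and 0.692 and 2.31 CPM in WT line 1269.

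Fibrillar collagens were highest in 1 of the 2 KO libraries. Col1a1, the main chain of type I collagen, read 28.1 and 5.43 CPM in KO line 650, against 2.46 and 2.76 CPM in WT line 300 and 2.997 and 2.81 CPM in WT line 1269, and DESeq2 called it higher with an adjusted p of 1.48e-04. Col1a2 read 13.9 and 1.74 CPM in KO line 650, against 1.64 and 1.87 CPM in WT line 300 and 0.768 and 0.992 CPM in WT line 1269, and Col3a1 read 10.8 and 1.23 CPM in KO line 650, against 1.37 and 1.48 CPM in WT line 300 and 0.999 and 1.16 CPM in WT line 1269. Library 650-2 of Col1a2 and Col3a1 lay inside the WT range, and without 650-1 the Col3a1 log2 fold change was -0.00027, against 2.40 ± 0.52 with it. The fibroblast list had 14 genes, of which 9 passed the filter on low counts. Of these, 8 were above the WT lines with a median of 2.71, which was 1.20 over 8 genes without 650-1. The summed level of the list was 60.4 and 13.9 CPM in KO line 650, against 6.65 and 7.30 CPM in WT line 300 and 6.30 and 14.3 CPM in WT line 1269. The list members Dcn, Lum, Pdgfra and Pdgfrb stayed under 1 CPM in all 6 libraries. Pdgfra was still higher in KO line 650, at 0.460 and 0.820 CPM, against 0.0769 to 0.248 CPM in the WT libraries. Fbn1 read 3.07 and 0.512 CPM in KO line 650 and 0.0769 to 0.331 CPM in the WT libraries. Thy1 read 0.767 and 1.54 CPM in KO line 650 and 0 in all 4 WT libraries. The tested member below the WT lines was Col6a3, at 1.15 and 0.307 CPM in KO line 650 and 0.197 to 8.35 CPM in the WT libraries. The endothelial, muscle and glia list summed to 79.5 and 181.8 CPM in KO line 650, against 12.3 and 15.4 CPM in WT line 300 and 7.07 and 20.1 CPM in WT line 1269. Whether stromal cells or epithelial cells gave these reads was not tested.

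The mesenchymal transition list had 15 genes, and 10 of them passed the filter. A gene that passed only through its higher group had to differ, so the counts of both lists are given as a description. The 10 genes were above the WT lines, with a median log2 fold change of 1.68, and 1.71 against line 300 alone and 1.80 against line 1269 alone. Without library 650-1 the median was 1.07, with 8 above and 1 below, and without 650-2 it was 1.49, with 9 above and 1 below. The repressor gene Zeb2 had 27 counts in 650-1 and 0 in 650-2. Besides Fn1 and Axl, the fibronectin receptor chain Itga5 read 18.5 and 23.2 CPM in KO line 650, against 10.4 and 7.20 CPM in WT line 300 and 9.22 and 13.7 CPM in WT line 1269, with a log2 fold change of 0.99 ± 0.28. The intermediate filament vimentin (Vim) read 9.89 and 3.07 CPM in KO line 650 and 1.68 to 2.46 CPM in the WT libraries. The repressor Zeb1, which drives the transition in other epithelia, read 0.460 and 1.23 CPM in KO line 650 and 0.154 to 0.413 CPM in the WT libraries, close to the detection floor. The 16 epithelial junction genes had a median of 0.03, with 11 above and 5 below the WT lines.

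Genes of cell division were lower in KO line 650 than in either WT line. All 28 members of the G2/M list were tested and all 28 were below the WT lines, with a median log2 fold change of -0.94, and 12 had an unadjusted p under 0.05, where 1.58% of all genes were lower by that measure. All 30 members of the S phase list were below as well, with a median of -0.93, and 15 had an unadjusted p under 0.05. For 14 of the 28 and 16 of the 30 both KO libraries lay below all 4 WT libraries, where 6.7% of all genes did. The median of the G2/M list was -0.46 against line 300 alone and -1.31 against line 1269 alone, and that of the S phase list was -0.61 against line 300 alone and -1.29 against line 1269 alone. The distance depended on which libraries were compared. Library 650-1 against 300-1 had all 28 G2/M genes below with a median of -0.81, and 650-2 against 300-2 had 19 of 28 below with a median of -0.10. For the S phase list those pairs of libraries gave 30 of 30 below with a median of -0.88 and 26 of 30 below with a median of -0.15. Without library 650-1 the G2/M median over the lines was -0.64, with 26 of 28 below, and without both shifted libraries it was -1.22, with 28 of 28 below. The S phase median was -0.70 without 650-1, with 25 of 30 below, and -1.27 without both shifted libraries, with 30 of 30 below.

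**Figure D4:**
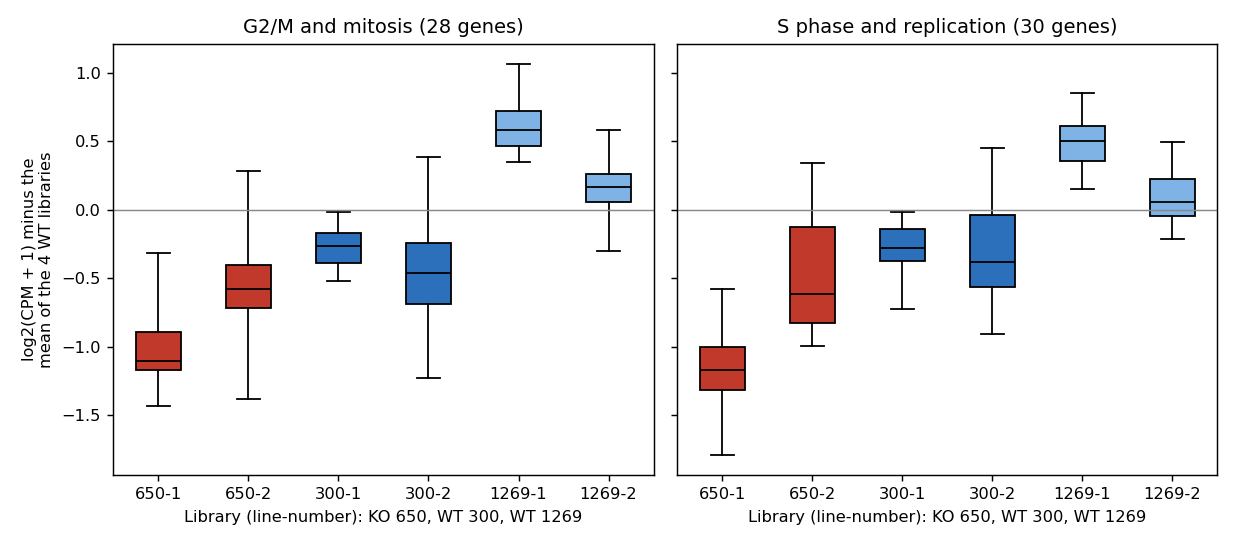
log2(CPM + 1) of each G2/M gene (left) and S phase gene (right) minus the mean of the 4 WT libraries, by library of KO line 650 and WT lines 300 and 1269. Boxes span the quartiles with the median as a line, and whiskers reach the lowest and highest gene. The G2/M medians are -1.10 in 650-1 and -0.58 in 650-2, against -0.26 in 300-1, -0.46 in 300-2, 0.59 in 1269-1 and 0.17 in 1269-2.

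Mki67, the proliferation antigen Ki-67, read 235 and 159 CPM in KO line 650, against 411 and 185 CPM in WT line 300 and 832 and 468 CPM in WT line 1269. The groups overlapped in Mki67, because the shifted WT library 300-2 lay between the KO libraries. Top2a, the topoisomerase that untangles chromosomes, overlapped in the same way, with 194 and 249.8 CPM in KO line 650, against 357 and 239 CPM in WT line 300 and 742 and 501 CPM in WT line 1269. The mitotic kinase Plk1 read 43.3 and 52.1 CPM in KO line 650, against 88.4 and 61.5 CPM in WT line 300 and 158 and 107 CPM in WT line 1269, and Cdc20, an activator of the anaphase-promoting complex, read 65.5 and 99.5 CPM in KO line 650, against 123 and 126 CPM in WT line 300 and 193 and 139.8 CPM in WT line 1269. For Plk1 and Cdc20 no KO library reached a WT library, and the log2 fold changes were -1.17 ± 0.39 for Plk1 and -0.89 ± 0.25 for Cdc20. The kinesin Kif4 read 30.4 and 45.8 CPM in KO line 650 and 49.8 to 103 CPM in the WT libraries, and the phosphatase Cdc25c read 8.05 and 14.8 CPM in KO line 650 and 16.1 to 24.8 CPM in the WT libraries.

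Replication genes ran in parallel. Mcm5, a subunit of the replicative helicase, read 60.7 and 98.8 CPM in KO line 650, against 156 and 139.7 CPM in WT line 300 and 282 and 182 CPM in WT line 1269, with a log2 fold change of -1.33 ± 0.39. Rrm2, which makes deoxynucleotides, read 39.3 and 74.1 CPM in KO line 650, against 105 and 96.4 CPM in WT line 300 and 191 and 160 CPM in WT line 1269. The licensing factor Cdt1 read 21.6 and 24.6 CPM in KO line 650, against 47.8 and 38.4 CPM in WT line 300 and 70.6 and 48.1 CPM in WT line 1269. In all 3 genes both KO libraries lay below the WT libraries, and line 1269 held the highest values. The clamp loader gene Rfc5 overlapped between the groups, at 24.9 and 50.3 CPM in KO line 650, against 45.5 and 66.2 CPM in WT line 300 and 82.9 and 66.98 CPM in WT line 1269, and so did the sliding clamp gene Pcna, at 72.8 and 139 CPM in KO line 650 and 137 to 204 CPM in the WT libraries. KO line 650 was also below KO line 1270 for all 28 G2/M genes and all 30 S phase genes, with medians of -1.02 and -0.995 in the direct contrast of those lines. The G2/M list summed to 1774 and 2393 CPM in KO line 650, against 2725 and 5166 CPM in KO line 1270. For the S phase list the sums were 1132 and 1724 CPM, against 1832 and 3513 CPM. Library 1270-1 thus lay nearer to KO line 650 than 1270-2 did, and single genes overlapped. Cdk1 read 73.6 and 182 CPM in KO line 650, against 105 and 229 CPM in KO line 1270.

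Targets of Wnt signalling were mostly lower in KO line 650. Wnt ligands stabilise beta-catenin, which keeps stem cells of the stomach and intestine dividing, and organoid medium commonly supplies them. Of 20 list genes 19 were tested, with 16 below and 3 above the WT lines and a median of -0.74. At an unadjusted p under 0.05, 4 were lower and 0 higher, where 1.58% of all genes were lower and 1.64% higher. Both KO libraries lay below all WT libraries for 6 members and above them for 1, against 6.7% and 6.33% of all genes. The median was -0.35 against line 300 alone and -0.97 against line 1269 alone. Without 650-2 and 300-2 it was -0.78, with 16 of 19 below. Lgr5, a receptor that marks cycling stem cells, read 1.61 and 1.13 CPM in KO line 650, against 6.20 and 3.45 CPM in WT line 300 and 16.2 and 14.9 CPM in WT line 1269, with a log2 fold change of -2.88 ± 0.91. Axin2, a feedback inhibitor of the pathway, read 6.44 and 5.33 CPM in KO line 650, against 22.1 and 11.5 CPM in WT line 300 and 49.03 and 52.8 CPM in WT line 1269, and Ascl2, a stem cell transcription factor, read 5.14 and 6.56 CPM in KO line 650, against 24.8 and 19.4 CPM in WT line 300 and 28.6 and 20.7 CPM in WT line 1269. Lgr5, Axin2 and Ascl2 were lower in both KO libraries than in any WT library, and for Lgr5 and Axin2 line 300 lay between KO line 650 and line 1269. Sox9, a progenitor transcription factor, read 44.6 and 35.9 CPM in KO line 650, against 85.8 and 66.2 CPM in WT line 300 and 84.6 and 74.6 CPM in WT line 1269, without overlap and with the WT lines close together. Rnf43, a ubiquitin ligase that removes Wnt receptors, read 37.4 and 29.6 CPM in KO line 650, against 53.96 and 44.5 CPM in WT line 300 and 93.6 and 85.5 CPM in WT line 1269. The growth regulators Myc and Ccnd1 were nearer to WT, with Myc at 85.4 and 110.5 CPM in KO line 650 and 92.2 to 184 CPM in the WT libraries, and Ccnd1 at 504 and 492 CPM in KO line 650 and 479.9 to 1045 CPM in the WT libraries.

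**Figure D5:**
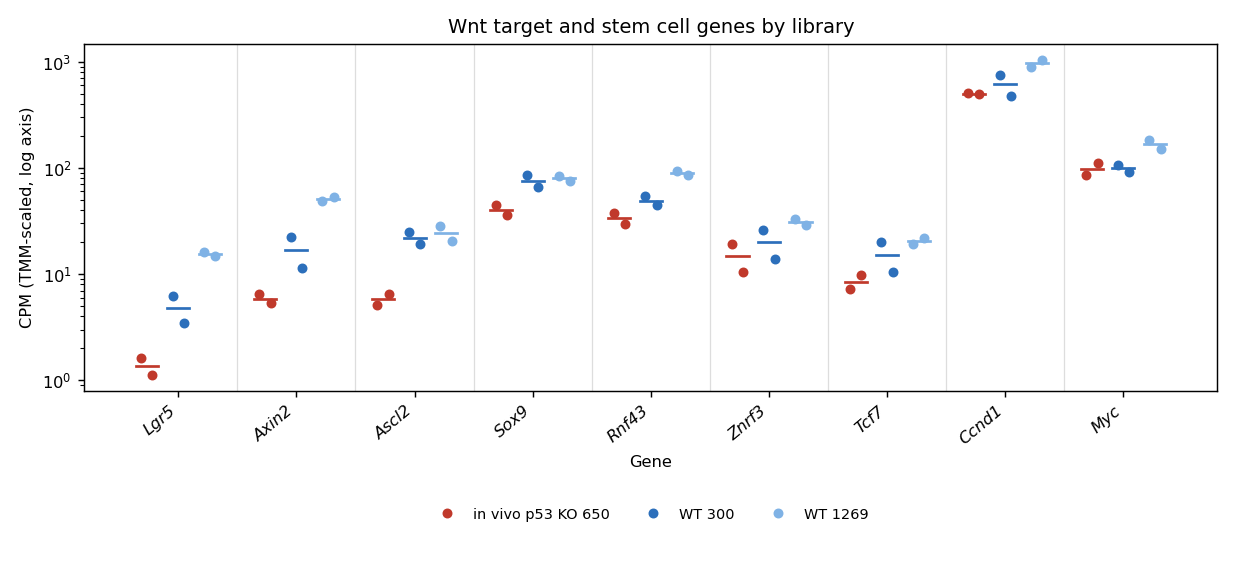
CPM (TMM-scaled, log axis) of Wnt target and stem cell genes in each library of KO line 650 and WT lines 300 and 1269, with bars at the mean of a line's 2 libraries. Lgr5, Axin2, Ascl2, Sox9 and Rnf43 lie below every WT library in both KO libraries, and Ccnd1 and Myc overlap with WT line 300.

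The gastric cell type lists differed in direction, and their medians depended on single libraries or lines. The pit cell list, mucus cells of the surface, had 7 genes above and 6 below the WT lines with a median of 0.03. With a term for sex, which leaves only the male WT line 300 as reference, its median was -0.48. Against line 1269 alone the list had a median of 0.57. Within it Psca, a surface antigen of the pit lineage, was lower at 121 and 128 CPM in KO line 650, against 209.9 and 322 CPM in WT line 300 and 225 and 299 CPM in WT line 1269, and the secreted gastrokine gene Gkn1 read 20.3 and 25.7 CPM in KO line 650, against 104 and 218 CPM in WT line 300 and 64.6 and 54.8 CPM in WT line 1269. The mucous neck list had a median of -0.38 over 13 genes, or 0.0023 without library 1269-2, and Muc6, the gland mucin, read 75.9 and 57.4 CPM in KO line 650, against 175 and 104 CPM in WT line 300 and 99.4 and 97.2 CPM in WT line 1269. Aqp5, a water channel of the antral gland base, read 58.1 and 88.95 CPM in KO line 650 and 149.5 to 184 CPM in the WT libraries. Psca, Gkn1, Muc6 and Aqp5 were lower in both KO libraries than in any WT library. The chief cell list had a median of -0.58 over 9 genes, which was -1.58 without library 650-1 and 0.10 against line 1269 alone. Within it Pgc, the zymogen pepsinogen C, read 43.8 and 38.2 CPM in KO line 650, against 242 and 429 CPM in WT line 300 and 15.5 and 7.52 CPM in WT line 1269. Tff2, a trefoil peptide of neck cells, read 838 and 1256 CPM in KO line 650, against 686 and 1579 CPM in WT line 300 and 20.98 and 8.77 CPM in WT line 1269. For Pgc and Tff2 the WT lines lay on either side of KO line 650 or far apart from each other, so the sign of the difference depends on which WT line is used. Dclk1, a tuft cell kinase, read 11.1 and 8.20 CPM in KO line 650, against 5.20 and 2.37 CPM in WT line 300 and 3.61 and 1.90 CPM in WT line 1269, with a log2 fold change of 1.55 ± 0.32, and the tuft list of 8 tested genes had a median of -0.29, or -0.61 without library 1269-1. The parietal list had 10 of 13 tested genes below the WT lines and a median of -0.10, which was 0.12 without libraries 300-2 and 650-2. Of the parietal proton pump, subunit Atp4a read 0.997 and 0.717 CPM in KO line 650 and 0.413 to 1.28 CPM in the WT libraries, and Atp4b was at 0 in all 6 libraries. The sodium-proton exchanger gene Slc9a4, in the same list, read 455 and 281 CPM in KO line 650 and 331 to 465 CPM in the WT libraries. Krt5, a basal keratin of the squamous forestomach, read 0.153 and 0 CPM in KO line 650 and 0.231 to 1.98 CPM in the WT libraries.

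Genes with the widest gap between the KO and the WT libraries came from several functions. They were picked because both KO libraries lay beyond all 4 WT libraries, so their lack of overlap is no separate result. Of all genes, 6.33% lay above in this way and 6.7% below. The same rule picked Acta2, Tagln, Cald1, Igfbp7, Tnc, Ascl2, Lgr5, Gkn1 and 9030617O03Rik, described above. Apob, the apolipoprotein of lipoprotein particles, was higher at 509 and 747 CPM in KO line 650, against 187 and 180.1 CPM in WT line 300 and 29.5 and 137 CPM in WT line 1269. Slc28a3, a nucleoside transporter, read 21.1 and 25.6 CPM in KO line 650, against 8.29 and 9.37 CPM in WT line 300 and 2.15 and 8.10 CPM in WT line 1269. The KO libraries of Apob and Slc28a3 lay above every WT library, and line 1269 held the lowest WT library of each. Rgs2, a regulator of G protein signalling, read 9.05 and 11.2 CPM in KO line 650 and 1.92 to 3.55 CPM in the WT libraries. Fxyd6, a regulator of the sodium pump, read 19.7 and 54.2 CPM in KO line 650 and 4.30 to 8.68 CPM in the WT libraries. Both KO libraries of Rgs2 and of Fxyd6 lay above every WT library. Ccdc80, a matrix protein, read 14.6 and 17.6 CPM in KO line 650 and 5.92 to 6.53 CPM in the WT libraries, with a log2 fold change of 1.33 ± 0.30. Map2, a microtubule-associated protein, read 9.82 and 11.2 CPM in KO line 650 and 2.76 to 4.30 CPM in the WT libraries.

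In the other direction, Noxa1, an activator of NADPH oxidase, read 8.21 and 11.2 CPM in KO line 650, against 39.3 and 45.05 CPM in WT line 300 and 34.04 and 26.1 CPM in WT line 1269. KO line 1270 was also low in Noxa1, at 10.1 and 12.6 CPM. Isl1, a transcription factor of gastric endocrine cells, read 0.307 and 0.102 CPM in KO line 650, against 2.37 and 1.87 CPM in WT line 300 and 21.7 and 13.5 CPM in WT line 1269. Isl1 was lower in the male lines 650 and 300 than in line 1269, and KO line 1270 read 17.4 and 22.2 CPM. The endocrine list had a median of 1.52, and 3.31 without line 300. With a term for sex, which leaves only the male WT line 300 as reference, it was 0.59. Most endocrine genes other than Isl1 were above the WT lines, with 9 of the list's 11 tested genes above. These were low genes, such as the granule protein gene Chgb at 2.38 and 2.66 CPM in KO line 650, against 1.003 and 1.18 CPM in WT line 300 and 0 in both libraries of WT line 1269, and Tph1, an enzyme of serotonin synthesis, at 0.384 and 1.02 CPM in KO line 650 and 0 to 0.0986 CPM in the WT libraries. None of the 9 had an unadjusted p under 0.05, and 5 lay above all WT libraries, where 6.33% of all genes did. Genes this low can pass the filter mainly through the line in which they are highest. These counts are therefore given as a description and are not comparable with the share of all genes. Ggta1, which adds the alpha-gal sugar to glycoproteins, read 14.5 and 20.9 CPM in KO line 650 and 36.3 to 65.5 CPM in the WT libraries. Pla2g4c, a phospholipase, read 11.2 and 7.17 CPM in KO line 650 and 24.1 to 85.5 CPM in the WT libraries. Slfn9, a schlafen family member, read 4.99 and 5.12 CPM in KO line 650 and 10.2 to 28.1 CPM in the WT libraries. The low genes Cyp2c44, a cytochrome P450, and Acnat2, an acyltransferase, read 3.60 and 3.59 CPM and 2.99 and 2.25 CPM in KO line 650, against 8.30 to 14.2 CPM and 6.53 to 12.8 CPM in the WT libraries.

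Set directly against KO line 1270, the ex vivo knockout, KO line 650 had p53 targets at higher levels and division genes at lower levels. edgeR called 0 of 14057 genes (0%) between the lines, with 967 at an unadjusted p under 0.05, of which 636 were higher and 331 lower in KO line 650. DESeq2 called 193 of 12636 genes, 177 higher and 16 lower, and limma-voom called 29 of 13141. Of the 63 tested p53 targets 50 were above KO line 1270, with a median log2 difference of 0.61. Cdkn1a read 220.3 and 169 CPM in KO line 650, against 26.8 and 37.1 CPM in KO line 1270, and Ccng1 read 212 and 288 CPM in KO line 650, against 89.4 and 77.2 CPM in KO line 1270. Phlda3 read 21.2 and 31.1 CPM in KO line 650, against 2.51 and 3.25 CPM in KO line 1270. For these 3 genes the mean of KO line 650 lay between that of KO line 1270 and those of the WT lines, as it did for Trp53. Fbln2 read 111 and 210.4 CPM in KO line 650, against 36.5 and 4.01 CPM in KO line 1270, a log2 difference of 3.06 ± 0.22. With 1 line of each kind, the mode of knockout, the sex of the line and the line itself cannot be told apart.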

How the data were processed

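Per the labels' protocols, the RNA of the organoids was collected on spin columns, and 100 ng of it went into each mRNA library. Per the submitters' processing notes, bcl2fastq and STAR 2.5 were used with the mouse build mm9. Which annotation and counter were used, and whether strand was, is not given in the sources used here. The authors deposited whole-number counts per gene symbol for 24047 genes, without normalization, of which 18180 had a count. Library totals over the series were 5669521 to 16323270 counts.

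Counts were summed per line and fitted over all 8 lines with edgeR 4.0.16 in R 4.3.3 (filterByExpr, TMM scaling, 1 mean for each of 5 groups, 3 residual degrees of freedom, robust quasi-likelihood test, Benjamini-Hochberg at 0.05). Fold changes are log2 with the SE from the F statistic, and CPM values use the TMM-scaled totals. With KO line 650 alone in its group, its spread is assumed to be that of the other lines. Alternatives were DESeq2 1.42.0 on line sums and limma 3.58.1 voom on libraries with lines as correlated blocks (correlation 0.18), other scalings, filters, covariates and left-out libraries. The 4 groups of DESeq2 alternatives that leave out libraries or lines were chosen after seeing the data. The procedure was tested on simulated data.

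The named genes are Trp53 and Cdkn2a, then per direction up to 12 genes with a mean CPM of at least 5 that passed the tests or, with none passing, lay in both KO libraries beyond all WT libraries, ranked by the gap on the log2(CPM + 1) scale, and up to 4 members per list (12 of the p53 targets) by smallest unadjusted p. Other genes were named after their values were seen. Some genes that the rule names are not reported here. The libraries and the 33 gene lists were chosen with earlier results of these data known. Library pairs of 1 line differed by more than sampling noise, with a chi-square per degree of freedom of at least 6.11, so none was a copy. GENCODE transcript lengths were matched for 95.4% of tested genes.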

Additional observations from a re-analysis of the deposited data

Results flagged for a closer look

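Among 105 genes tested for a WT library far from the other 3, 10 had such a library. Chance gives about 1 in 20 groups when the 4 values are independent. These libraries are 2 from each of 2 lines, and genes were named partly by their values, so that rate does not apply here. WT library 1269-2 was the high one for Mdm2 with 292.2 CPM (others 91.1 to 124), Slc19a2 with 76.65 CPM (others 45.0 to 49.2), Zfp365 with 43.82 CPM (others 1.91 to 8.99), Axl with 12.4 CPM (others 1.84 to 3.35) and St6gal1 with 11.49 CPM (others 5.72 to 6.65). Mdm2, Slc19a2 and Zfp365 are p53 targets, and the p53 target median without 1269-2 stands in the report. WT library 300-2, a shifted library, was the high one for Fxyd6 with 8.675 CPM (others 4.30 to 4.65), Col7a1 with 1.479 CPM (others 0.307 to 0.456) and Ctsw with 0.2957 CPM (others 0.0769 to 0.0912). WT library 300-1 was high for Muc6 with 175.3 CPM (others 97.2 to 104.5), and WT library 1269-1 was low for Rgs2 with 1.921 CPM (others 3.31 to 3.55).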

How the results depend on the processing

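The number of genes called between KO line 650 and the WT lines was 0 in 25 of 27 alternatives, 20 with DESeq2 and 5 against WT line 1269 alone (Pitx1, Clps, Eif2s3y, Slc5a5 and Nkx6-3, of which Eif2s3y is Y-linked). The number of DESeq2 calls was 83 without libraries 300-2 and 650-2, 38 without the 6 shifted libraries, 315 against line 1269 alone and 11 against line 300 alone, and it ranged from 9 (without library 1269-1) to 342 (without line 300) when 1 library or line was left out. Of the 20 genes, 12 were shared with the 83, 8 with the 38 and 7 with the 9, so many of them depended on the libraries used. Between KO line 650 and KO line 1270 the count was 1 without a filter on low counts (Fbln2), 193 with DESeq2, 29 with limma-voom, 2 with libraries as samples and no block (Tlcd2, Myo16) and 6 with the replicate block, and 0 in 19 other alternatives; leaving out line 1270 or using a single WT line gave no value for it. Same-numbered libraries of lines 650 and 300 shared deviations from their group means, with correlations of 0.516 and 0.422. Between lines 650 and 1269 the correlations were only 0.147 and 0.0249. The labels' library numbers were therefore not shown to pair the libraries of all 3 lines. The replicate block left the count against WT at 0.

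The p53 target median was -0.25 against line 300 alone and between -0.97 (without line 300) and -0.22 (without line 1269) with 1 library or line left out. With the sex of the line as a covariate it was the same -0.25. Lines 650 and 300 were the only male lines, so the sex covariate repeats the comparison with line 300 and adds no separate check. The p53 target median kept its sign in all 27 alternatives. Of the single-gene fold changes, 2767 kept their direction and side of the threshold, 20 passed the threshold only under DESeq2 and 6 reversed. Those were Tff2, at -0.16 with the sex covariate, -0.16 against line 300 alone and between -0.13 (without line 1269) and 6.06 (without line 300) with 1 library or line left out, the log2 fold change of Pgc, at 1.81 against line 1269 alone and between -2.996 (without line 1269) and 1.81 (without line 300), and Col3a1, between -0.00027 (without library 650-1) and 3.11 (without 650-2). The cause of these shifts was not tested. Genes at or near the floor of 3 counts per library in WT organoids, such as Thy1 and Fstl1, were given no fold change.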

Other observations

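Cholesterol and fatty acid synthesis genes were above the WT lines in 19 of 21 cases with a median log2 fold change of 0.27 and 0 at an unadjusted p under 0.05, but the median was -0.13 without library 650-1 and 0.52 without 650-2. The desaturase gene Scd1 read 503 and 179 CPM in KO line 650, against 282 and 104 CPM in WT line 300 and 25.1 and 43.9 CPM in WT line 1269. Interferon response genes were above in 20 of 28 cases with a median of 0.27, which was 0.16 without 650-2 and 0.53 without 650-1, and the ubiquitin-like modifier Isg15 read 0.997 and 3.997 CPM in KO line 650 and 0.274 to 0.887 CPM in the WT libraries. The NF-kB list had 10 of 17 below the WT lines with a median of -0.12, which was -0.45 without line 300 and 0.43 without line 1269, and the alarmin Il33 read 187 and 189 CPM in KO line 650, against 527 and 263 CPM in WT line 300 and 284 and 718 CPM in WT line 1269. Glycolysis and hypoxia genes had a median of 0.01 against the WT lines, with 12 above and 11 below, and between -0.19 and 0.24 over the alternatives. By line, all 23 were above KO line 1270, with a median of 0.68, but the libraries of that line differed. The list summed to 17870 and 13260 CPM in KO line 650, against 5160 and 13730 CPM in KO line 1270. Library 1270-2 thus lay within the range of KO line 650. The growth factor Vegfa, in that list, read 202 and 244 CPM in KO line 650, 53.05 and 125 CPM in KO line 1270 and 89.3 to 152 CPM in the WT libraries. Cytosolic ribosomal protein genes had a median of -0.03 over 29 genes, which was -0.45 without 650-2 and 0.45 without 650-1. The Notch pathway list had 9 of 12 below the WT lines with a median of -0.44, or 0.09 without line 1269. Immediate early genes had 11 of 17 below with a median of -0.19, or 0.10 without library 1269-2. The lists of squamous forestomach, intestinal metaplasia, regional transcription factor, antigen presentation, NRF2 and detoxification, YAP target, EGF receptor, unfolded protein response and retinoid genes had medians between -0.21 and 0.14, and between -0.79 and 0.82 over all alternatives.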
